A study of Mus musculus with 5 samples.

Results

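The basement membrane is the sheet of matrix under tubules, around capillaries and between podocytes and glomerular endothelium. The 9 genes described here encode 5 chains of type IV collagen (Col4a1, Col4a2, Col4a3, Col4a4 and Col4a5) and 4 laminin chains (Lama5, Lamb1, Lamb2 and Lamc1). They were taken by symbol from the 32285 genes of the deposited matrices, and all 9 were present once.

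Kidneys of 5 mice were profiled by droplet single-cell RNA sequencing after ischemia-reperfusion injury (IRI), in which blood flow to the kidney is stopped and restored. Mice 3, 4 and 5 were taken at 10 days (day 10) and mice 1 and 2 at 48 h, and each mouse gave 1 library. The strain, age, sex and any batch of the mice are not given in the labels used here, and no uninjured kidney was compared, so every difference in time is between a later and an earlier stage after injury. The deposited annotation placed 23797 cells under 18 labels, of which 13 were summed as tubule (11062 cells), while endothelium (3361 cells), interstitium (1005 cells), podocytes (165 cells) and immune cells (8138 cells) are single labels.

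Depth differed between the times. The summed UMIs (unique molecular identifiers, 1 per captured transcript) of the kept cells were 57375234 to 78351722 per library at day 10 and 45887945 to 60583527 at 48 h, with a median of 10328.5 to 11750 UMIs per cell at day 10 and 5823 to 6260 at 48 h. Every defining marker of podocytes (5 genes), endothelium (7 genes) and interstitium (5 fibroblast and 6 mural or mesangial genes) was detected in its own compartment in each library, and their summed levels exceeded those of the same lists in tubule many times over (for podocyte markers 10771 to 12872 CPM in podocytes and at most 14.7 CPM in tubule, but 680 to 766 CPM in endothelium). CPM are counts per 1000000 UMIs of a compartment in a mouse. Libraries shared 3 to 10 kept cell barcodes per pair. Hemoglobin UMIs in endothelium were fewer at day 10, with 1.26 to 4518 CPM, against 7964 to 11492 CPM at 48 h. In interstitium they overlapped, with 692, 0.314 and 5.77 CPM at day 10, against 47.8 CPM in mouse 1 and 13853 CPM in mouse 2 at 48 h.

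Type IV collagen chains assemble in threes inside the cell and then form a network in the matrix. The Col4a1 and Col4a2 chains form the network found in nearly all basement membranes, and the Col4a3, Col4a4 and Col4a5 chains form the network of the mature glomerular basement membrane, where podocytes make it, and of some tubule segments. A laminin holds 1 alpha, 1 beta and 1 gamma chain. Lama5 is the main alpha chain of adult kidney basement membranes, Lamc1 the common gamma chain, and the beta chains alternate, Lamb2 being the beta chain of the mature glomerular membrane and Lamb1 that of many other membranes. In humans, loss of the COL4A3, COL4A4 or COL4A5 chain causes Alport syndrome, and loss of LAMB2 causes Pierson syndrome.

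The collagen genes lie in head-to-head pairs, and the sequences at these starts are shown because the paired chains were counted separately in every cell type below. Col4a4 and Col4a3 lie on chromosome 1 and are read in opposite directions. The stretch shown runs between the start used for the Col4a4 window and the annotated start of Col4a3 (82586921) and holds no exon of the GENCODE annotation, but the RefSeq span of Col4a4 reaches beyond it, to 82587034, so the gene spans overlap. Col4a1 and Col4a2 lie on chromosome 8, and the stretch shown runs between the starts used for their windows, within exon sequence of both genes. The RefSeq span of Col4a1 reaches beyond it, to 11312889, so these gene spans overlap as well. Lamb1 on chromosome 12 and Lamb2 on chromosome 9 are not paired, and the bases just before their first annotated exon are shown because the ratio of the 2 genes varied between compartments. All are RefSeq sequences of GRCm38.p6 written 5′ to 3′, and capitals mark a CCAAT or GGGCGG motif.
Col4a3 start to Col4a4 start, minus strand, chr1:82586850-82586920: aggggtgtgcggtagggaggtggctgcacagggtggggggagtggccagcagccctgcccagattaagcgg
Col4a2 start to Col4a1 start, plus strand, chr8:11312805-11312826: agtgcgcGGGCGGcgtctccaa
Lamb1 upstream, plus strand, chr12:31265043-31265145: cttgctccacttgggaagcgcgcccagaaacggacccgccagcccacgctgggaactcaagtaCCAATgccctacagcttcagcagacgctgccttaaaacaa
Lamb2 upstream, plus strand, chr9:108479612-108479735: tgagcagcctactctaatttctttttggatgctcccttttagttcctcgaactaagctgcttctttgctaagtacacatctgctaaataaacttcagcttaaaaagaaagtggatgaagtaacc

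Windows of 300 bases around the RefSeq start (250 before, 50 after) were at hand for 7 of the 9 genes, all but Col4a3 and Lamc1. On either strand, CCAAT was found in 4 of these 7 windows (Col4a1, Col4a2, Col4a5 and Lamb1) and in 37.4% of 32851 mouse windows. GGGCGG was found in 5 of 7 (Col4a1, Col4a2, Col4a5, Lama5 and Lamb1) and in 35.7% of all windows, and TATAAA in 0 of 7 and in 13.6% of all. The windows of Col4a1 and Col4a2 overlap in part. The windows of Col4a4 and Lamb2 held none of the 3 motifs.

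Across cell types, the 2 collagen networks peaked in different places, and both were low in immune cells. The labels come from the same UMIs, so the levels are a description with no test. Col4a1 and Col4a2 were highest in interstitium and endothelium, whose ranges overlapped. Col4a1 had 1979 ± 778 CPM in interstitium, 1639 ± 373 CPM in endothelium, 202 ± 68.3 CPM in tubule, 58.1 ± 33.7 CPM in podocytes and 19.0 ± 6.01 CPM in immune cells (mean ± SD, n = 5 mice). Col4a2 followed with 1125 ± 486, 903 ± 287, 85.5 ± 35.5, 26.6 ± 17.8 and 10.7 ± 3.69 CPM in the same order of compartments. Interstitium and endothelium stood above tubule in every mouse, whereas the ranges of tubule and podocytes overlapped for both chains. Within tubule, the descending thin limb held the most Col4a1, at 731 ± 296 CPM, against 171 ± 40.6 CPM in proximal tubule and 118 ± 48.7 CPM in the thick ascending limb.

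Col4a3, Col4a4 and Col4a5 were highest in podocytes in every mouse. Col4a3 had 2426 ± 563 CPM in podocytes, 100.4 ± 13.1 CPM in tubule, 36.8 ± 10.9 CPM in interstitium, 28.1 ± 1.49 CPM in endothelium and 4.95 ± 2.21 CPM in immune cells. Col4a4 had 1715 ± 226, 190.4 ± 32.6, 56.3 ± 13.6, 21.6 ± 1.57 and 7.33 ± 2.04 CPM in that order. Col4a5, which lies on the X chromosome, had the lowest mean of the 3 in each compartment, with 355 ± 102 CPM in podocytes, 38.2 ± 6.68 CPM in tubule, 21.8 ± 5.58 CPM in interstitium and 20.4 ± 5.40 CPM in endothelium. In endothelium it was close to Col4a4, and in intercalated cells it exceeded Col4a3 (30.7 against 22.9 CPM). For Col4a5 the ranges of tubule, interstitium and endothelium overlapped from neighbour to neighbour, and for Col4a3 those of interstitium and endothelium did. Among tubule segments, the descending thin limb (195 ± 50.6 CPM) and thick ascending limb (152 ± 46.7 CPM) carried the most Col4a3, and intercalated cells the least (22.9 ± 5.04 CPM).

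The share of cells with a UMI gave a similar picture once each cell was thinned to 1000 UMIs, except for the highest compartment of Col4a1 and Lama5. For Col4a1 it was endothelium in place of interstitium, and for Lama5 podocytes (7.57%) in place of endothelium (7.30%). Col4a3 was then expected in 80.8% of podocytes, 8.25% of tubule cells and 0.501% of immune cells, against 91.6%, 49.96% and 3.50% before thinning. Col4a1 was expected in 67.5% of endothelial, 63.7% of interstitial and 1.92% of immune cells, against 92.1%, 90.3% and 11.96% before thinning. Immune cells were taken as a rough background of free RNA, which was not itself measured. Median UMIs per cell over all mice were 10081.5 in immune cells, 6219 in podocytes, 4377 in endothelium, 7596 in interstitium and 13762.5 in tubule. Whether the background is equal in cells of other depth was not tested. Podocytes were close to the immune cell level for Col4a2 (1.99% against 1.13%) and Lamb1 (1.06% against 0.688%). Neither gene was set apart from that level there at this depth. Immune cells are no such background for Lamc1, of which they held 5.55% to 18.1% of the UMIs of a library, against 0.804% to 3.86% for each of the other 8 genes.

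**Figure D1:**
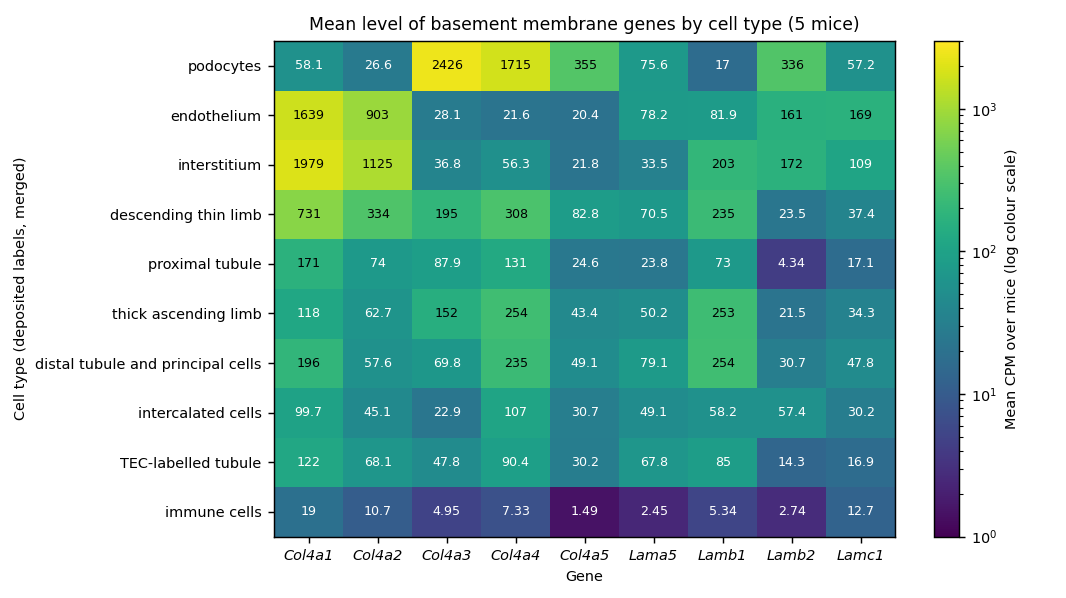
Mean CPM over 5 mice of each gene (columns) in each cell type (rows), with a logarithmic colour scale. Col4a3, Col4a4, Col4a5 and Lamb2 peak in podocytes, Col4a1 and Col4a2 in interstitium and endothelium, and Lamb1 is about equally high in thick ascending limb (253 CPM) and distal tubule with principal cells (254 CPM).

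The laminin chains each had their own order. Lamb2 was highest in podocytes (336 ± 70.5 CPM), then interstitium (172 ± 67.5 CPM) and endothelium (161 ± 12.7 CPM), neighbours whose ranges overlapped, and was lower in tubule (18.9 ± 5.56 CPM). Lamb1 was highest in interstitium (203 ± 99.2 CPM) and tubule (163 ± 32.6 CPM), which overlapped, then endothelium (81.9 ± 38.8 CPM) and podocytes (17.02 ± 25.0 CPM), and each neighbour in that order also overlapped the next. The order of the first 2 depended on the time, with 226 to 336 CPM in interstitium and 162 to 209.5 CPM in tubule at day 10, but 99.6 to 110 CPM in interstitium and 118 to 156 CPM in tubule at 48 h. Over both times, distal tubule with principal cells (254 CPM), thick ascending limb (253 CPM) and descending thin limb (235 CPM) each averaged more Lamb1 than interstitium. The common gamma chain Lamc1 had 169 ± 41.6 CPM in endothelium, 109 ± 20.3 CPM in interstitium, 57.2 ± 10.3 CPM in podocytes and 30.2 ± 8.30 CPM in tubule, and only endothelium and interstitium overlapped. Lama5 had 78.2 ± 16.1 CPM in endothelium, 75.6 ± 39.3 CPM in podocytes, 47.7 ± 22.03 CPM in tubule and 33.5 ± 13.9 CPM in interstitium, with each neighbour overlapping the next. Proximal tubule had the least Lamb2 of the tubule types (4.34 ± 1.28 CPM) and intercalated cells the most (57.4 ± 9.07 CPM).

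A high level in a rare cell type need not make it the main source of a transcript among the captured cells. Tubule supplied 72.4% to 88.5% of the Col4a3 UMIs of a library and podocytes 6.77% to 17.7%. For Col4a4 the tubule gave 86.6% to 94.0% and podocytes 3.02% to 6.17%. Col4a1 was split between tubule (22.6% to 49.4%), endothelium (25.7% to 49.1%) and interstitium (7.32% to 41.5%). These shares depend on which cells were captured.

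Ratios of 2 chains within a cell type do not depend on depth, although the capture of each transcript may differ, so ratios are compared between cell types and times and not read as protein. Col4a4 over Col4a3 was 0.720 ± 0.0820 in podocytes and 0.770 ± 0.0746 in endothelium, against 1.53 ± 0.336 in proximal tubule, 1.70 ± 0.154 in thick ascending limb, 3.38 ± 0.168 in distal tubule with principal cells and 4.66 ± 0.504 in intercalated cells (n = 5 mice each). The podocyte range (0.617 to 0.845) lay below the range of each of these 4 tubule types in all mice, the lowest of which was 1.05 in proximal tubule. Lamb1 over Lamb2 was 16.6 ± 1.45 in proximal tubule, 11.8 ± 2.04 in thick ascending limb and 1.06 ± 0.465 in intercalated cells. Of the podocyte markers in endothelium, Nphs1 and Wt1 were at 0.299 to 2.62 CPM each per mouse, whereas Podxl, which endothelium is also known to make, was at 586 to 687 CPM and Synpo at 57.4 to 116 CPM. Their part in the endothelial ratio of Col4a4 to Col4a3 was not tested. For Lamb1 over Lamb2 in podocytes, only mouse 5 had the 10 UMIs of each chain asked for, with a ratio of 0.227. Podocytes of mouse 5 also carried markers of principal cells and thick ascending limb, given below.

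**Figure D2:**
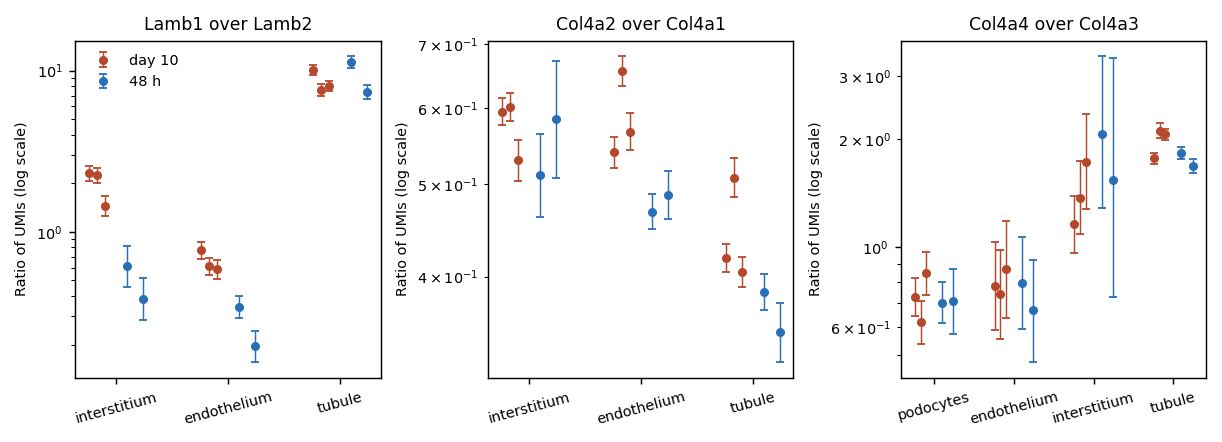
Ratio of the summed UMIs of 2 chains per mouse (log scale), day 10 left of 48 h within each compartment, with exact 95% intervals that cover counting error only. Lamb1 over Lamb2 is higher at day 10 in interstitium (1.45 to 2.30 against 0.384 to 0.611) and endothelium (0.588 to 0.769 against 0.195 to 0.344) and overlaps in tubule, and Col4a4 over Col4a3 is below 1 in podocytes at both times.

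By likeness of pattern over the 18 labels (Pearson correlation of log2(CPM + 1) of label means, a description over points that share libraries), the closest gene to Col4a1 was Col4a2 (r = 0.944), followed by Smtn (0.936) and Prickle1 (0.934). Col4a2 was closest to Prickle1 (0.946), Col4a1 and Serpinh1 (0.909), the last being the chaperone of collagen folding. Col4a3 was closest to Col4a5 (0.941), Smo (0.926) and Mpp5 (0.917), and its neighbour Col4a4 had r = 0.917 with it. Col4a4 was closest to P3h2 (0.935), a collagen prolyl hydroxylase, Col4a5 (0.932) and Kank1 (0.920). Col4a5 was closest to Col4a3, Dag1 (0.933), the laminin receptor dystroglycan, and Col4a4. Lamb2 was closest to Aopep (0.957), Zfp37 (0.955) and Laptm4a (0.947), Lamc1 to Zdhhc8 (0.943), Calu (0.912) and Esyt2 (0.911), Lama5 to Zbtb10 (0.932) and Hoxd4 (0.915), and Lamb1 to Atp9a (0.924), Igsf3 (0.919) and Rabl2 (0.912). Between the 2 collagen networks the correlations were all positive, with the lowest for Col4a2 with Col4a4 (0.131) and the highest for Col4a1 with Col4a5 (0.557). The 18 labels include red blood cells, entered from mouse 1 alone, where no member had more than 3 UMIs. Correlations without that label were not computed.

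In interstitium, Col4a1, Col4a2 and Lamb1 rose at day 10 relative to 48 h, so both chains of the widespread collagen network and 1 laminin beta chain were 2.08 to 2.62 times higher by the fitted fold. Col4a1 had 2230, 2972 and 2253 CPM at day 10, against 1492 and 949 CPM at 48 h. Col4a2 had 1326, 1789 and 1192 CPM at day 10, against 762 and 554 CPM at 48 h. Lamb1 had 245, 336 and 226 CPM at day 10, against 99.6 and 110 CPM at 48 h. For all 3 genes every day 10 mouse lay above both 48 h mice.

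These 3 genes passed the threshold (adjusted p under 0.05, edgeR quasi-likelihood test, Benjamini-Hochberg over 11392 genes), beside 7.44% of all genes tested in interstitium (3.91% higher and 3.53% lower). The log2 fold change, day 10 over 48 h, was 1.06 for Col4a1 (SE 0.21, adjusted p = 0.0228), 1.16 for Col4a2 (SE 0.22, adjusted p = 0.0175) and 1.39 for Lamb1 (SE 0.23, adjusted p = 0.00961). The calls rest on few mice. Without mouse 2, Col4a1 (adjusted p = 0.113) and Col4a2 (0.103) no longer passed, and without mouse 1, Col4a2 (0.0628) and Lamb1 (0.0964) did not, which leaves 1 gene called in each case. With equal numbers of cells and UMIs per library, Col4a1 had an adjusted p of 0.0871. Mouse 2 had the lowest Col4a1 of the 5 mice in every compartment, immune cells included (9.32 CPM against 18.0 to 25.3 CPM in the other mice).

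The other 6 genes did not pass in interstitium. Lama5 had 17.1, 24.5 and 32.2 CPM at day 10, against 41.4 and 52.4 CPM at 48 h (log2 fold change -0.92, SE 0.31, adjusted p = 0.120). Lamb2 had 106, 150 and 156 CPM at day 10, against 163 and 287 CPM at 48 h (-0.68, SE 0.27, adjusted p = 0.171). Every day 10 mouse was below both 48 h mice for these 2 genes and for Col4a5 (16.2 to 21.7 CPM at day 10, 26.2 to 28.4 CPM at 48 h). Ranges did not overlap for 6 of the 9 genes, beside 44.3% of all genes tested. The podocyte-rich chains Col4a3 (log2 fold change 0.56) and Col4a4 (0.11) and the gamma chain Lamc1 (0.37) overlapped between the times. The median over the 9 genes was 0.37, beside 0.01 over all genes tested.

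**Figure D3:**
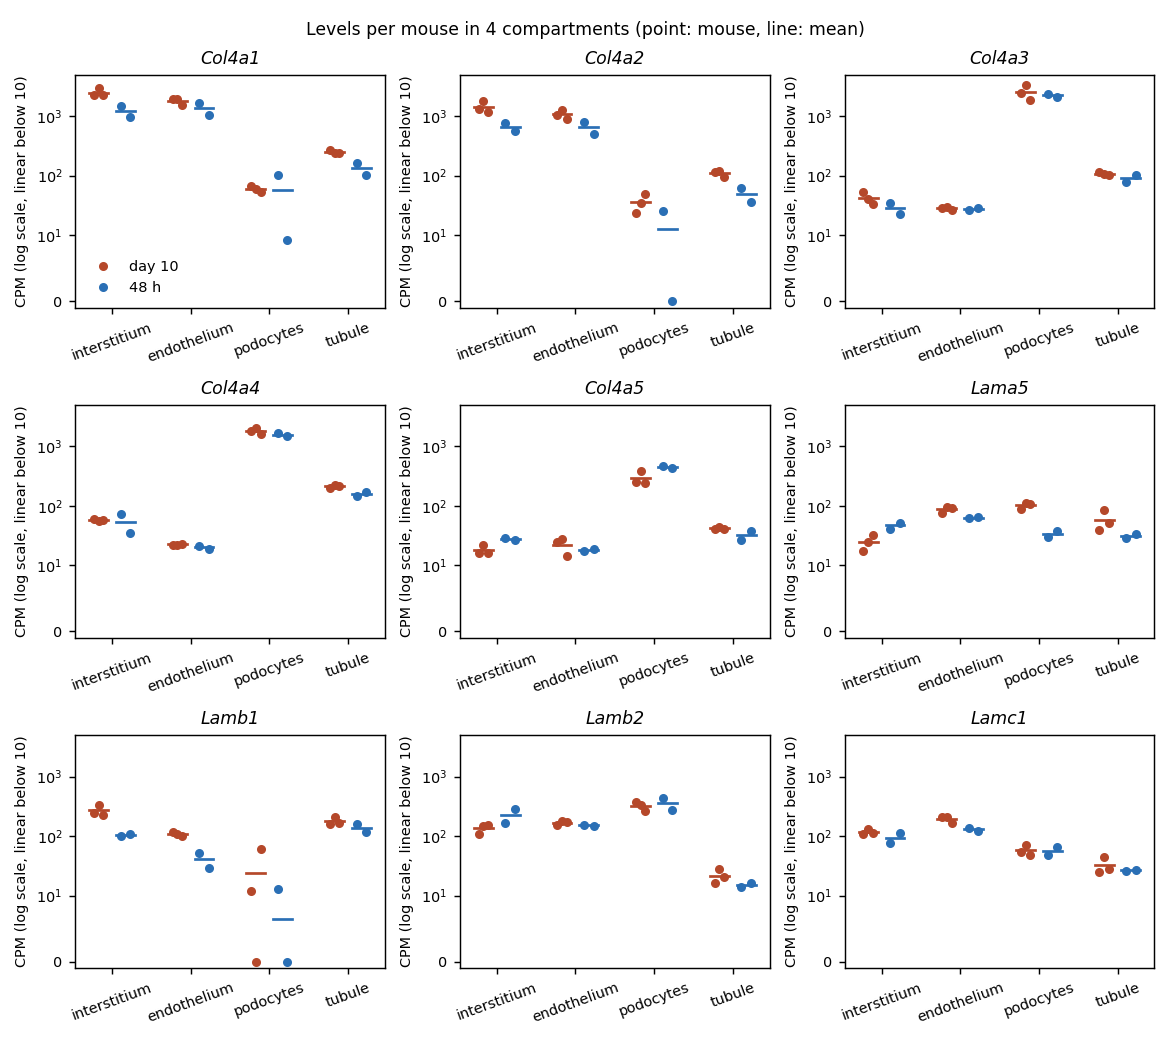
CPM per mouse (points) and their mean (lines) of each gene in 4 compartments, day 10 left of 48 h, on a log scale that is linear below 10. Points do not overlap between the times for Col4a1, Col4a2 and Lamb1 in interstitium, and Lamb1 in endothelium is 101 to 118 CPM at day 10 against 29.0 to 52.8 CPM at 48 h.

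The balance of marker UMIs in the interstitial label moved with time. Summed fibroblast markers (5 of 5 genes detected) overlapped narrowly, with 8019 to 9366 CPM at day 10 against 5401 to 8032 CPM at 48 h. Summed mural and mesangial markers (6 of 6 detected) were 6436 to 7405 CPM at day 10 against 9261 to 10997 CPM at 48 h. Cells with more UMIs of fibroblast markers than of mural and mesangial markers made up 58.2%, 62.6% and 51.6% of the label at day 10, against 30.4% and 31.0% at 48 h. Whether the kinds of cells or the marker levels within a cell changed was not tested. The label was therefore divided by these marker UMIs, a step chosen after the data were seen and given with no test. Cells with equal UMIs of both lists (5 to 12 per mouse) were left aside, and on the fibroblast side 4 to 10 cells per mouse lay within 2 UMIs of the dividing line. That side held only 35 and 22 cells at 48 h.

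On the fibroblast side, Lamb1 had 290, 405 and 294 CPM at day 10, against 170.5 and 175 CPM at 48 h, and Col4a2 had 1479, 1928 and 1451 CPM at day 10, against 1101 and 516 CPM at 48 h, with no overlap for either. Col4a1 overlapped there, with 2453, 3232 and 2819 CPM at day 10, against 2507 and 1363 CPM at 48 h. On the mural and mesangial side, Col4a1 had 1776, 2339 and 1012 CPM at day 10, against 894 and 709 CPM at 48 h, and Lamb1 151, 194 and 76.7 CPM at day 10, against 59.5 and 72.3 CPM at 48 h. Col4a2 on that side had 1018, 1462 and 623 CPM at day 10, against 564 and 578 CPM at 48 h. Ranges did not overlap there for Col4a1, Lamb1 or Col4a2. The share of all genes without overlap was not counted within either side. In the whole label it was 44.3%. Lamb2 on the fibroblast side was lower at day 10 (84.0, 101 and 85.5 CPM) than at 48 h (153 and 157 CPM), while on the mural side the times overlapped. Lama5 lay mostly in mural and mesangial cells, with 40.1 to 90.8 CPM at day 10 and 63.9 to 81.0 CPM at 48 h, against at most 9.22 CPM in any mouse on the fibroblast side. Within the mural side the Lama5 ranges overlapped between the times.

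**Figure D4:**
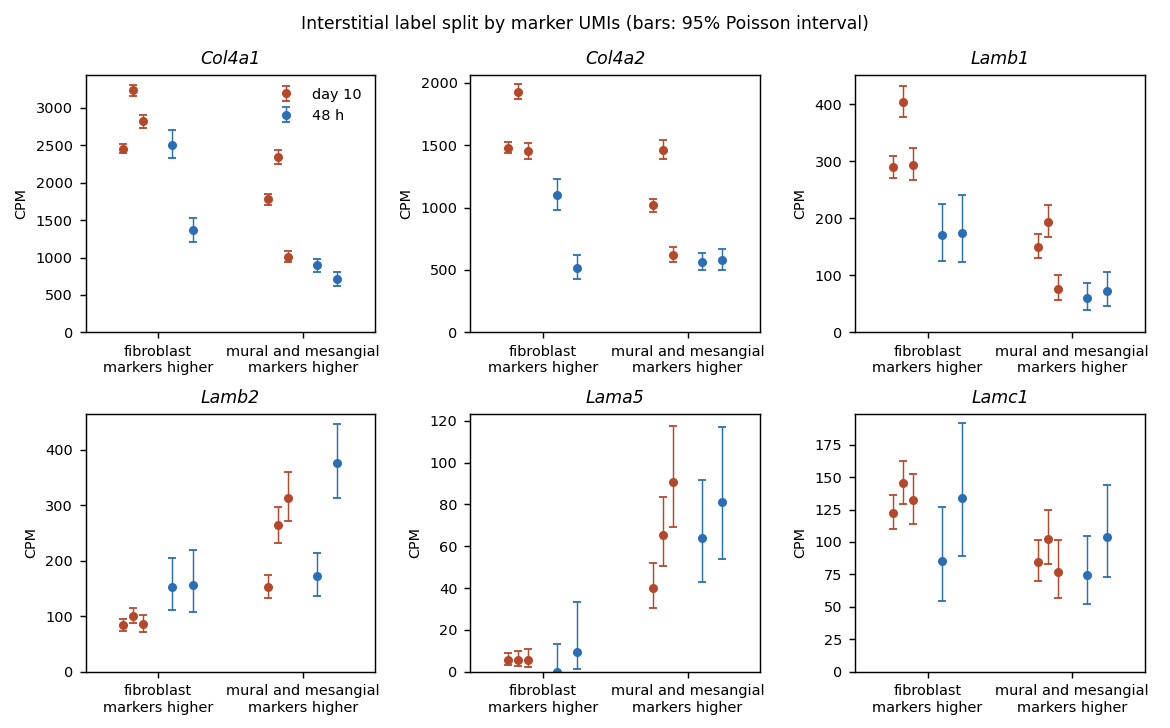
CPM of 6 genes per mouse in interstitial cells divided by marker UMIs, day 10 left of 48 h, with 95% Poisson intervals that cover counting error only. On the fibroblast side Lamb1 and Col4a2 lie higher at day 10 in every mouse and Lamb2 lies lower, and Lama5 is near 0 there at both times. On the mural and mesangial side Col4a1, Col4a2 and Lamb1 lie higher at day 10 in every mouse, but the intervals of mouse 5 overlap those of a 48 h mouse.

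In endothelium no gene of the 9 passed the threshold, beside 0.328% of 12190 genes tested (40 genes). By edgeR, 4 of the 9 had an unadjusted p under 0.05 (Col4a2, Lama5, Lamb1 and Lamc1), beside 13.9% of all genes tested, and DESeq2 called 1, Lamb1, beside 1.73% of all genes. Lamb1 had 118, 108 and 101 CPM at day 10, against 52.8 and 29.0 CPM at 48 h, so that each day 10 mouse was higher (log2 fold change 1.32, SE 0.23, adjusted p = 0.0801). With no filter on low counts Lamb1 (adjusted p = 4.2e-05), Col4a2 (0.0359) and Lamc1 (0.0481) passed by edgeR, beside 2.35% of 19211 genes under that setting. Summed fibroblast markers in endothelium were 36.9 to 84.7 CPM at day 10 and 8.92 to 21.8 CPM at 48 h, and mural and mesangial markers 66.0 to 106 CPM at day 10 and 28.0 to 44.6 CPM at 48 h. Their part in the Lamb1 difference was not tested.

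Among the other endothelial chains, Col4a2 had 1057, 1274 and 884 CPM at day 10, against 789 and 508 CPM at 48 h (log2 fold change 0.64, SE 0.23, adjusted p = 0.287). Lamc1 had 210.1, 212 and 164 CPM at day 10, against 138 and 119.7 CPM at 48 h (0.52, SE 0.15, adjusted p = 0.204), and Lama5 77.2, 97.3 and 91.5 CPM at day 10, against 61.5 and 63.7 CPM at 48 h (0.42, SE 0.14, adjusted p = 0.263). Col4a1 overlapped, with 1959, 1941 and 1561 CPM at day 10, against 1689 and 1044 CPM at 48 h. Lamb2 was nearly level, with 154, 177 and 172 CPM at day 10, against 153 and 149 CPM at 48 h. The ratio of Lamb1 to Lamb2 in endothelium was 0.769, 0.611 and 0.588 at day 10, against 0.344 and 0.195 at 48 h, and in interstitium 2.30, 2.24 and 1.45 at day 10, against 0.611 and 0.384 at 48 h. Ranges did not overlap for 6 of the 9 genes in endothelium, beside 34.6% of all genes tested, and the median log2 fold change was 0.33, beside 0.00 over all genes.

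In tubule as a whole none of the 9 genes passed, beside 0.567% of 16036 genes tested (91 genes). Col4a1 and Col4a2 had an unadjusted p under 0.05 by edgeR, a share near the background of 18.0% of all genes tested, and DESeq2 called Col4a2 alone of the 9 (adjusted p = 0.0383), beside 7.18% of all genes. Col4a2 had 113.5, 119.6 and 95.6 CPM at day 10, against 62.8 and 35.7 CPM at 48 h (log2 fold change 0.88, SE 0.28, adjusted p = 0.189 by edgeR). Col4a1 had 271, 236 and 237 CPM at day 10, against 163 and 102 CPM at 48 h (0.63, SE 0.25, adjusted p = 0.256). Lama5 had 39.6, 83.9 and 52.3 CPM at day 10, against 29.1 and 33.5 CPM at 48 h (0.64, SE 0.28, adjusted p = 0.308). The log2 fold changes of Col4a3 (0.01), Col4a4 (0.18), Col4a5 (0.13), Lamb1 (0.12), Lamb2 (0.26) and Lamc1 (0.04) were all smaller. Ranges did not overlap for 7 of the 9 genes, beside 49.8% of all genes tested, and the median of the 9 was 0.18, beside 0.01 over all genes. Marker sums in tubule moved between the times too. Fibroblast markers (5 of 5 detected) were at 11.7 to 38.5 CPM at day 10 and 4.00 to 6.68 CPM at 48 h, and mural and mesangial markers (6 of 6) at 78.7 to 95.2 CPM at day 10 and 25.6 to 47.2 CPM at 48 h. Thick ascending limb markers (3 of 3) were at 1653 to 2270 CPM at day 10 and 4091 to 5830 CPM at 48 h. Their part in the tubule values was not tested.

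**Figure D5:**
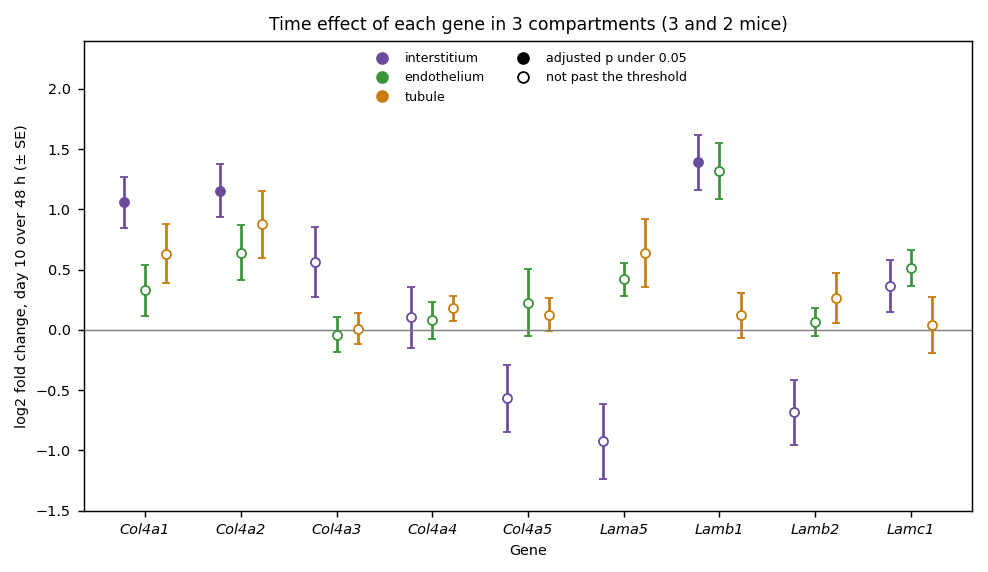
Log2 fold change of each gene, day 10 over 48 h, with its SE in interstitium, endothelium and tubule (3 mice at day 10, 2 at 48 h). Filled points passed the threshold and are Col4a1, Col4a2 and Lamb1 in interstitium. Lama5 is below 0 in interstitium and above 0 in the other 2 compartments.

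Single tubule types gave 4 calls, all higher at day 10, and 3 of them in the descending thin limb, where 5.12% of 11192 genes passed (2.77% higher). There Col4a2 had 467, 397 and 421 CPM at day 10, against 249 and 136 CPM at 48 h (log2 fold change 1.09, SE 0.24, adjusted p = 0.0366). Lama5 had 67.9, 109.996 and 93.6 CPM at day 10, against 33.4 and 47.8 CPM at 48 h (1.12, SE 0.25, adjusted p = 0.0348), and Col4a3 248, 238 and 202 CPM at day 10, against 135 and 152 CPM at 48 h (0.63, SE 0.15, adjusted p = 0.0451). Col4a1 in that segment had 1087, 712 and 945 CPM at day 10, against 569 and 343 CPM at 48 h, and did not pass (0.94, SE 0.25, adjusted p = 0.0628). The fourth call was Col4a2 in the cells labelled TEC, with 89.8, 169 and 52.5 CPM at day 10, against 17.7 and 11.4 CPM at 48 h (2.63, SE 0.49, adjusted p = 0.0390). There 0.525% of 7809 genes passed (0.282% higher) and 8 of the 9 genes were tested. This call rests on few UMIs, with 203 of Col4a2 in these cells over all 5 mice. Their depth was low, with a median of 1556 to 1687 UMIs per cell in a mouse.

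Each of these 4 calls was lost when some single mouse was left out. Col4a3 in the thin limb was lost whichever mouse was left out (adjusted p 0.0685 to 0.173). Col4a2 there was lost without mouse 2 (0.105), mouse 3 (0.0776) or mouse 5 (0.0917), and Lama5 without mouse 1 (0.197), mouse 2 (0.106) or mouse 5 (0.0889). Col4a2 in the cells labelled TEC was lost without mouse 3 (0.118), mouse 4 (0.0741) or mouse 5 (0.0750). The number of calls over these types was 7 without mouse 1, 1 without mouse 2, 2 without mouse 3, 3 without mouse 4 and 0 without mouse 5. Calls over all genes of these types moved as well, with 2412 over all 5 mice, 2365 without mouse 1, 1026 without mouse 2, 1135 without mouse 3, 1300 without mouse 4 and 376 without mouse 5.

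No gene of the 9 passed in proximal tubule (3.22% of all genes passed), thick ascending limb (10.4%), distal tubule with principal cells (0.00774%) or intercalated cells (0.238%). By edgeR an unadjusted p under 0.05 was reached by 2 of the 9 genes in proximal tubule (22.7% of all genes tested), 1 in the thick ascending limb (28.9%), 2 in distal tubule with principal cells (7.92%) and 4 in intercalated cells (10.7%), so the counts of the first 2 types were not above the background. In the thick ascending limb, Col4a2 had 89.8, 81.9 and 78.0 CPM at day 10, against 44.0 and 19.7 CPM at 48 h (log2 fold change 1.00, SE 0.30, adjusted p = 0.0734). Intercalated cells had values in the other direction, with Lamb1 at 48.8, 46.8 and 44.4 CPM at day 10, against 66.9 and 84.1 CPM at 48 h (-0.81, SE 0.15, adjusted p = 0.106), and Col4a4 at 78.2, 95.5 and 93.8 CPM at day 10, against 112.5 and 155 CPM at 48 h (-0.70, SE 0.16, adjusted p = 0.182). In the deposited label of injured proximal cells, Col4a1 was 238 to 282 CPM at day 10 and 99.6 to 178 CPM at 48 h, and Lamb1 89.7 to 174 CPM at day 10 and 35.6 to 61.6 CPM at 48 h. That label held 305, 48 and 251 cells at day 10 and 590 and 99 cells at 48 h. It was not tested apart, and times are not compared here for its other members. The share of all genes without overlap was not counted in it, and was 49.8% in tubule as a whole.

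The difference of the time effect between compartments was tested with mouse as a block. Of the 9 genes, 2 passed for interstitium minus endothelium (3.29% of 13289 genes), 2 for interstitium minus tubule (4.04% of 15739 genes) and 1 for endothelium minus tubule (0.805% of 15399 genes). Col4a1 changed more in interstitium than in endothelium (difference of log2 fold changes 0.75, SE 0.14, adjusted p = 0.0122). The fitted effect of Lama5 was negative in interstitium and positive in the other 2 compartments, and was more negative in interstitium than in endothelium (-1.32, SE 0.27, adjusted p = 0.0222) and in tubule (-1.47, SE 0.30, adjusted p = 0.0224). Lamb1 had a larger time effect in interstitium (1.31, SE 0.23, adjusted p = 0.00924) and in endothelium (1.22, SE 0.18, adjusted p = 0.0215) than in tubule. The Lamb1 effects of interstitium and endothelium differed by 0.08 (SE 0.29, adjusted p = 0.952).

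Leaving out single mice ended each of these 5 calls at least once, and leaving out mouse 1 ended all 5. Other calls among the members appeared without mouse 1 and are not named here. Col4a1 was lost without mouse 1 (adjusted p = 0.0968) or mouse 5 (0.0729). Lama5 against endothelium was lost without mouse 1 (0.0860), mouse 2 (0.143) or mouse 3 (0.0716), and against tubule without mouse 1 (0.145), mouse 2 (0.163) or mouse 3 (0.0515). Lamb1 of interstitium against tubule was lost without mouse 1 (0.129), and of endothelium against tubule without mouse 1 (0.0517), mouse 2 (0.132), mouse 3 (0.0544) or mouse 5 (0.0706).

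Podocytes numbered 49, 23 and 44 at day 10 and 34 and 15 at 48 h, and 1 library at 48 h thus held fewer than the 20 asked for, so the values carry no planned test. Col4a3 had 2444, 3342 and 1878 CPM at day 10, against 2398 and 2069 CPM at 48 h, and Col4a4 1780, 2063 and 1588 CPM at day 10, against 1679 and 1466 CPM at 48 h, both overlapping. Col4a5 had 254, 383 and 242 CPM at day 10, against 469 and 427 CPM at 48 h. Lama5 had 90.0, 112.01 and 109 CPM at day 10 (19 to 27 UMIs per mouse), against 30.1 and 37.1 CPM at 48 h (7 and 4 UMIs). Every day 10 mouse was lower for Col4a5 and higher for Lama5, beside 24% of 4167 genes whose ranges did not overlap, while the exact 95% Poisson interval of Lama5 in mouse 2, 10.1 to 95.03 CPM, covered the value of mouse 3. Lamb2 overlapped, with 368, 330 and 266 CPM at day 10, against 439 and 278 CPM at 48 h. A fit over all 5 mice, added after the data were seen, called 0 of the 7 genes that passed its filter, beside 0.048% of 4167 genes. Of those 7, 2 had an unadjusted p under 0.05, beside 6.19% of all genes tested, Lama5 (log2 fold change 1.64, SE 0.40, adjusted p = 0.530) and Col4a5 (-0.65, SE 0.23, adjusted p = 0.706). Markers of other cells in the podocyte libraries moved with time, with immune markers at 160 to 513 CPM at day 10 and 51.7 to 92.8 CPM at 48 h, and mural and mesangial markers at 15.6 to 643 CPM at day 10 and 0 to 4.31 CPM at 48 h. Mouse 5 had 766 CPM of principal cell and 492 CPM of thick ascending limb markers. Their part in the podocyte values was not tested.

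Of 26 other basement membrane genes, 20 were tested in interstitium, where 4 rose and 1 fell at day 10. Col15a1, a collagen at the outer face of basement membranes, rose to 1045 CPM at day 10, against 197 CPM at 48 h (log2 fold change 2.43, adjusted p = 0.00168). Pxdn, the peroxidasin that cross-links type IV collagen, rose to 109 CPM at day 10, against 39.9 CPM at 48 h (1.48, adjusted p = 0.00477), and the laminin alpha chain Lama2 to 187 CPM at day 10, against 70.8 CPM at 48 h (1.44, adjusted p = 0.0104). Sparc, a collagen-binding matrix protein, rose by less (0.74, adjusted p = 0.0276). Tinagl1, a basement membrane glycoprotein, fell to 146 CPM at day 10, against 443 CPM at 48 h (-1.59, adjusted p = 0.00473). The median log2 fold change of the 20 genes was 0.10.

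Of 12 collagen folding genes, 2 rose in interstitium, the prolyl hydroxylase P3h1 (log2 fold change 1.39, adjusted p = 0.0277) and the lysyl hydroxylase Plod1 (0.83, adjusted p = 0.0475), and none fell. Of 14 matrix receptors, 12 were tested and 3 fell, the integrin chain Itga8 (-1.70, adjusted p = 0.00776), the laminin receptor Bcam (-1.40, adjusted p = 0.00395) and the tetraspanin Cd151 (-0.94, adjusted p = 0.0121). Itga8 is also 1 of the 6 mural and mesangial markers, the summed level of which was lower at day 10. The list medians were 0.28 for folding and -0.59 for receptors, beside 0.01 over all genes tested. In endothelium 0 of 18 basement membrane, 0 of 12 folding and 0 of 13 receptor genes passed by edgeR, with 9, 0 and 1 at an unadjusted p under 0.05 (13.9% of all genes tested). In tubule 1 of 26 basement membrane genes, 0 of 12 folding and 0 of 13 receptor genes passed, with 11, 4 and 3 at an unadjusted p under 0.05 (18.0% of all genes tested), the 1 call being Nid1, the linker of laminin and collagen, at 9.51, 11.5 and 9.26 CPM at day 10, against 2.83 and 2.35 CPM at 48 h (log2 fold change 1.68, adjusted p = 0.0416), which is below the level set for named genes and was named after its values were seen.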

How the data were processed

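Per the labels, cells were captured with a 10x Genomics droplet kit (v3.1) that reads transcript 3′ ends. Among the tools, the submitters' processing notes name Seurat 4.0.5 and Cell Ranger 6.0.2, with mm10 as genome, and the matrix headers name another Cell Ranger release. The authors deposited matrices of raw UMI counts, and a table of kept cells with counts, percent of mitochondrial UMIs and cell type labels; these deposited counts and percents matched the matrices in every cell. No doublet caller was run here, and the deposited table shows no step against doublets or free RNA.

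The summed UMIs per mouse and compartment went into edgeR 4.0.16 under R 4.3.3, with its filterByExpr filter, TMM factors and quasi-likelihood test, Benjamini-Hochberg adjustment over all genes of a compartment, a threshold of 0.05 and at least 20 cells per library. CPM use raw totals and fitted folds use TMM factors, so a fold can depart from the ratio of the means. Thinning to 1000 UMIs gives the hypergeometric expectation. Alternatives were RLE factors, no filter, DESeq2 1.42.0, equal cells and UMIs, leaving out each mouse, leaving out injured or cycling cells, equal shares of tubule types, and thinning to 2000 UMIs. The fit was tested on simulated data.

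Named list genes were those past the threshold with an average log2 CPM of 3 or more, up to 5 per direction, and the 3 genes most like each member (highest log2 CPM of 3 or more), of which 1 is not reported here. The members and lists were chosen with earlier results of these data known. Replicates are mice by their labels, and intervals cover counting error only.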

Additional observations from a re-analysis of the deposited data

Results flagged for a closer look

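There were 5 results that differed between compartments by a test of the difference itself (interaction of compartment and time in edgeR, mouse as block, Benjamini-Hochberg over all genes). The time effect of Col4a1 was larger in interstitium than in endothelium by 0.75 (SE 0.14, adjusted p = 0.0122). That of Lama5 was more negative in interstitium than in endothelium by -1.32 (SE 0.27, adjusted p = 0.0222) and than in tubule by -1.47 (SE 0.30, adjusted p = 0.0224). That of Lamb1 exceeded tubule by 1.31 in interstitium (SE 0.23, adjusted p = 0.00924) and by 1.22 in endothelium (SE 0.18, adjusted p = 0.0215). For Lama5, the share of interstitial cells with more mural and mesangial marker UMIs, where most Lama5 of the label lay, was 40.4%, 35.3% and 45.7% at day 10 against 59.1% and 62.0% at 48 h. Its part in the difference was not tested. All 5 calls ended when mouse 1 was left out, while other calls among the members appeared, which are not named here.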

How the results depend on the processing

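No paired analysis was possible because the groups share no replicate numbers. DESeq2 called 1 gene of the 9 in tubule and 1 in endothelium, against 0 in each. With no filter on low counts 3 were called in endothelium, beside 2.35% of all genes. In interstitium 5 were called (against 3), beside 9.09% of all genes, and that setting also moved the median log2 fold change of all genes there to 0.19. Leaving out 1 mouse gave 1 to 3 calls in interstitium, 0 to 7 in single tubule types and 2 to 5 for differences between compartments. Counts over all genes varied more, to 0 to 58 in tubule, 0 to 60 in endothelium and 211 to 702 in interstitium without 1 mouse, 1152, 211 and 826 with DESeq2, 537, 451 and 1705 with no filter, 146 and 140 in tubule without injured or cycling cells and with equal shares of tubule types, and 61 in endothelium and 479 in interstitium with equal cells and UMIs.

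Small effects that did not pass the threshold changed sign. Without injured or cycling cells the log2 fold change in tubule was -0.16 for Lamb1 and -0.025 for Lamc1. With equal cells and UMIs it was -0.015 for Col4a4 and -0.0082 for Lamb2 in endothelium. With 1 mouse left out, the range in tubule was -0.10 to 0.12 for Col4a3, -0.044 to 0.31 for Col4a5, -0.13 to 0.41 for Lamb1 and -0.22 to 0.18 for Lamc1, that of Col4a3 in endothelium -0.096 to 0.015, and that of Col4a4 in interstitium -0.25 to 0.73. The cause was not tested. With 1 mouse left at 48 h, that mouse is assumed to vary like the others. The limits are 2 mice at 48 h, 71 to 115 interstitial cells per mouse at that time, 15 to 49 podocytes per mouse, and lower UMIs per cell at 48 h.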
